A study of Homo sapiens with 32 samples.

Results

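The 9 genes described here code for proteins that slow the growth of cells or belong to the p53 stress response: BTG1, BTG2, BTG3, TOB1, PLK2, PLK3, GADD45A, GADD45B and MDM2. They are 9 of the 18980 coding genes listed for each library, and each was taken by its symbol. BTG2 and PLK2 were chosen from responses already seen in these libraries: BTG2 was among the genes with the largest falls under A485, and PLK2 among those whose dose effect differed between compounds. Their values are therefore a description and carry no p-value. The other 7 were also chosen with earlier results of these data known. The record does not say whether their own values played a part. For these 7, p-values adjusted over all genes tested are given with that limit.

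RNA was sequenced from RH4, an established cell line of human alveolar rhabdomyosarcoma (a muscle-lineage tumour of childhood). The 4 compounds, A485, dCBP, IHK-44 and JQAD, were given at doses of 100 nM and 1 µM for 2 h or 6 h, which makes 16 treated libraries. The labels call the compounds inhibitors or degraders of CBP/p300 without saying which is which. A485 is known as an inhibitor of the catalytic site of CBP and p300, the paired acetyltransferases that act as transcriptional coactivators. The controls were cells in DMSO, the solvent, and a group named NT, whose meaning is not spelled out. Each control had 1 library at 2 h and 1 at 6 h. Every group was the same line, plated the day before treatment, and all 20 library names carry the same date code. Each condition had 1 library, so a single ratio has no replicate check. In the fits, the 4 libraries under each compound, at 2 doses and 2 times, took the place of replicates, and nothing says that they came from separate cultures.

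Proteins of the BTG and TOB family bind the CCR4-NOT deadenylase and bring it to messenger RNAs, whose poly(A) tails it shortens, and they restrain entry into the cell cycle. PLK2 and PLK3 are polo-like kinases induced by serum and by stress, unlike PLK1, which drives mitosis. GADD45 proteins bind PCNA and the mitotic kinase CDK1 and activate the kinase MAP3K4. MDM2 is the ubiquitin ligase that marks p53 for destruction, and its own gene is a p53 target, as are BTG2, PLK2 and GADD45A. Several of these genes are early response genes with short-lived transcripts.

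CBP was first known as the protein that binds CREB, and CREB recognises TGACG, the core of the cAMP response element. The 250 bases before the annotated start are shown for BTG2, for PLK2 and for BTG1, the 3 genes below the controls in every A485, dCBP and IHK-44 library whose window holds that word, with TGACG or its complement CGTCA in capitals. They are from RefSeq on GRCh38.p14 and read 5′ to 3′ on the gene's strand, at chr1:203305269-203305518 (plus strand) for BTG2, chr5:58460087-58460336 (minus strand) for PLK2 and chr12:92145847-92146096 (minus strand) for BTG1.
BTG2: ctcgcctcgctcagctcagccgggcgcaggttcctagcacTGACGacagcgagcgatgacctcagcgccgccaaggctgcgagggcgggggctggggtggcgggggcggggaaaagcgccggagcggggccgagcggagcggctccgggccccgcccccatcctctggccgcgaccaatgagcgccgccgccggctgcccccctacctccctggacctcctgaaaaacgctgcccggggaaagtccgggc
PLK2: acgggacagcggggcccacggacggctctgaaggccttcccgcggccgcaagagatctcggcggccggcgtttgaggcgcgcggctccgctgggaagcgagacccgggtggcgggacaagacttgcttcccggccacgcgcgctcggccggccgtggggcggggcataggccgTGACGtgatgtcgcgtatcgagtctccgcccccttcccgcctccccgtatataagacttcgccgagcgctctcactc
BTG1: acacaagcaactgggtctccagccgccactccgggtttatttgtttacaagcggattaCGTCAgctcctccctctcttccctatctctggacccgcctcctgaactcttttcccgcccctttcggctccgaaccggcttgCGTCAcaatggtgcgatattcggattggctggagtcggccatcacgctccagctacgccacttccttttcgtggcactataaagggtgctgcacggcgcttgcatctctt
The word was found on either strand 1 time before BTG2, 1 time before PLK2 and 2 times before BTG1. Of the 9 symbols, 8 were matched in the table, GADD45A not. Of the remaining genes, TOB1 had 1 match in 1 of its 2 windows, and the windows of BTG3, PLK3, GADD45B and MDM2 had 0. Among all 35116 windows of 250 bases in the table, 21.2% held it, and among the 15897 windows of genes tested here 27.1% did. A match describes the letters only. The BTG2 window held 30 CpG dinucleotides, that of PLK2 37 and that of BTG1 18, against a median of 20 (quartiles 11 and 27) over the windows of genes tested.

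The libraries held between 13466630 and 16799326 counts over coding genes, and no pair of libraries was identical (r of 0.922 to 0.997 over 190 pairs). Values are given as CPM, a gene's share of the counts over all coding genes. On that scale the median gene of a treated library lay between -0.02 and 0.22 log2 units from DMSO of the same time. Of 11 markers of rhabdomyosarcoma and myoblasts, 10 had a median CPM of at least 1, and MYF6 was at or near 0. Of 15 markers of leukocytes, epithelium, endothelium and fibroblasts, 11 had a median under 1, and EPCAM, KRT5 and KRT14 were at 0 in every library. The other 4 were the fibroblast and mesenchymal markers COL1A1, PDGFRA and DCN and the leukocyte marker CD68. Their medians were 15.6, 11.2, 3.51 and 1.70 CPM in that order. The summed CPM of the muscle markers was 3194 to 3451 in the controls, 1941 to 3135 with A485, 1606 to 2710 with dCBP, 1522 to 2784 with IHK-44 and 3269 to 3697 with JQAD. The part of these markers in the results below was not tested. In bulk RNA, fewer cells of a kind and less RNA per cell cannot be told apart.

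Per length, GADD45A was the highest of the genes in the 4 control libraries, at 57.9 ± 3.46 FPKM (SD, n = 4), followed by MDM2 at 38.2 ± 2.39. PLK2 at 27.2 ± 2.57 and BTG2 at 25.7 ± 1.68 came next, and their ranges overlapped. TOB1 at 18.7 ± 0.62 and BTG3 at 17.7 ± 1.41 overlapped as well. BTG1 was at 7.45 ± 0.57, GADD45B at 6.20 ± 0.29 and PLK3 at 3.71 ± 1.00 FPKM, and the ranges of these 3 did not overlap.

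The first question was which of the 9 genes differ from solvent under each compound. The edgeR fit over the 20 libraries tested 13260 genes, all 9 among them, and called a gene at an adjusted p under 0.05. With A485, 2 of 9 were called, both lower (BTG2 and GADD45B), where 0.158% of all genes were called lower. With dCBP, 6 of 9 were called lower and none higher, where 11.8% of all genes were called lower and 11.8% higher. With IHK-44, 6 of 9 were called lower and none higher, beside 9.21% of all genes lower and 7.74% higher. The split over all genes depends on the scaling: 1567 lower and 1570 higher with dCBP became 1101 and 2555 with library size alone, and 1221 and 1026 with IHK-44 became 963 and 1929. For A485, 21 lower and 15 higher became 20 and 6 with RLE scaling. The 6 were BTG1, BTG2, PLK2, GADD45A, GADD45B and MDM2 for either compound. Without BTG2 and PLK2, the counts were 1, 4 and 4 of 7. With JQAD, 0 of 9 were called by edgeR and 0 by DESeq2, 0 had an unadjusted p under 0.05, and 0.0% of all genes were called (143 genes had an unadjusted p under 0.05). NT differed from DMSO in 0 of the 9 by either tool, again with 0 at an unadjusted p under 0.05.

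The calls against DMSO rest on 2 DMSO libraries. Without DMSO at 6 h, the count fell to 2 of 9 for dCBP and 3 of 9 for IHK-44, and the adjusted p (edgeR) became 0.0805 for BTG1, 0.0864 for GADD45A, 0.171 for GADD45B and 0.177 for MDM2 with dCBP. For IHK-44 the values without it were 0.161 for BTG1, 0.0543 for GADD45B and 0.301 for MDM2. Over all genes, the calls without DMSO at 6 h fell from 1567 lower and 1570 higher to 85 and 33 of 13515 with dCBP, and from 1221 and 1026 to 106 and 19 with IHK-44. Without DMSO at 2 h they were 966 and 624 of 13506 with dCBP and 745 and 341 with IHK-44. The IHK-44 calls over all genes, 2247 in either direction, were 691 without 1 µM IHK-44 at 6 h and 913 without 100 nM IHK-44 at 6 h. Leaving out each of the 20 libraries in turn moved the count for A485 between 0 and 4 of the 9. Over all genes, A485 had 36 calls, 0 without DMSO at 2 h, DMSO at 6 h or 1 µM A485 at 6 h, and 257 without 100 nM A485 at 6 h. The direction of the fitted change was negative in each of these 20 fits for BTG1, BTG2, PLK2, GADD45A and GADD45B with A485, dCBP and IHK-44.

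A simpler count sets the 4 libraries of a compound against all 4 control libraries, DMSO and NT. Every A485 library was below every control for 5 of the 9 genes (BTG1, BTG2, PLK2, GADD45A and GADD45B), where 7.45% of the 12174 genes whose mean CPM reached 1 were so. For dCBP the count was 6 of 9 beside 11.1% of all genes, and for IHK-44 it was 6 of 9 beside 11.5%, the same 6 as above in either case. For JQAD it was 1 of 9, TOB1, beside 1.47% of all genes. Without BTG2 and PLK2, the counts were 3 of 7 for A485, 4 for dCBP, 4 for IHK-44 and 1 for JQAD.

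**Figure D1:**
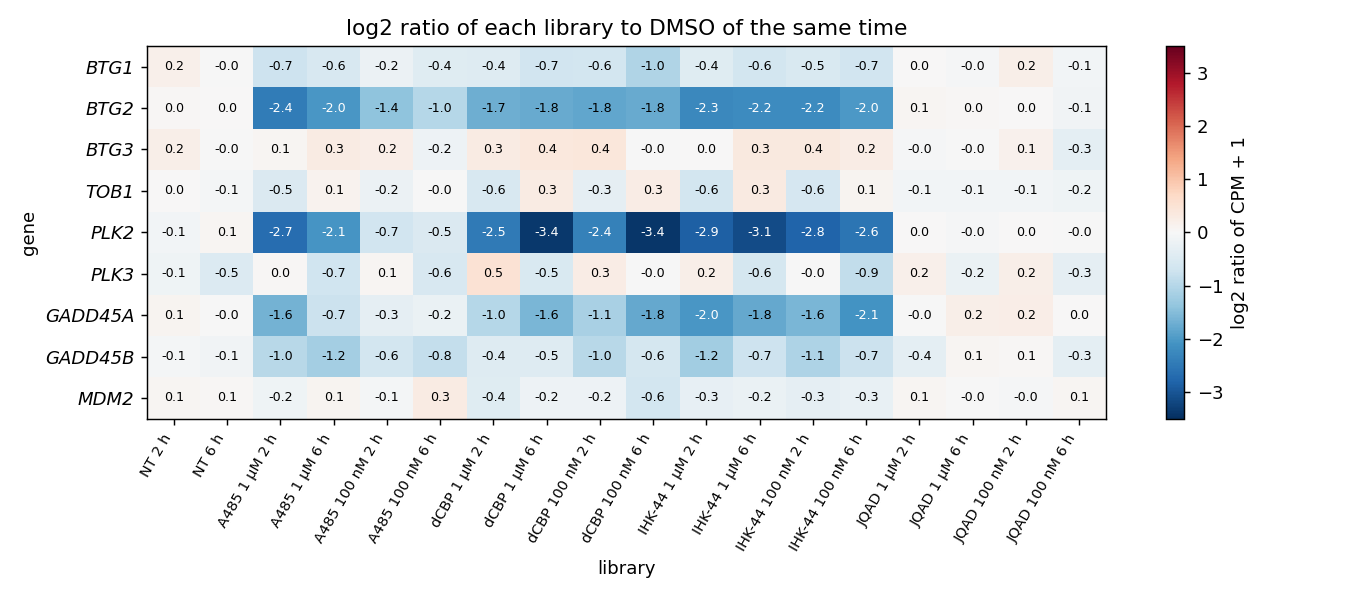
log2 ratio of CPM + 1 in each of 18 libraries (columns) to time-matched DMSO, for the 9 genes (rows), with blue for lower and red for higher. BTG2 and PLK2 are blue in all 12 libraries of A485, dCBP and IHK-44, down to -2.45 for BTG2 and -3.41 for PLK2, and near white with NT and JQAD.

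BTG2, which couples p53 and growth signals to the deadenylase, lies at chromosome 1:203305519-203309602. Its CPM was 70.8 and 64.3 in DMSO and 72.7 and 64.7 in NT (2 h and 6 h). With 1 µM A485 it was 12.2 at 2 h and 14.8 at 6 h, and with 100 nM it was 26.1 and 31.8. All 4 A485 libraries were below the controls, and the 100 nM libraries lay between the 1 µM libraries and the controls.
With dCBP the BTG2 values were 20.8 and 18.2 CPM at 1 µM and 19.4 and 18.3 CPM at 100 nM. With IHK-44 they were 14.0 and 13.2 CPM at 1 µM and 14.7 and 15.1 CPM at 100 nM. These 8 libraries were close together across doses and times, and every IHK-44 library was below every dCBP library. With JQAD they were 74.8, 65.7, 70.9 and 58.6 CPM, overlapping the controls. As a ratio, 1 µM A485 at 2 h was 5.83-fold lower than DMSO (95% interval 4.99 to 6.83, exact, for counting error only). The fitted log2 change of BTG2 against DMSO was -1.73 ± 0.25 (SE) with A485, -1.92 ± 0.25 with dCBP and -2.36 ± 0.25 with IHK-44. It was 0.00 ± 0.25 with JQAD.

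BTG1, the relative of BTG2 first found at a translocation in leukaemia, lies at chromosome 12:92140278-92145846 and overlaps the non-coding LINC01619. BTG1 was at 33.9 and 33.5 CPM in DMSO and 38.7 and 33.1 CPM in NT. It was at 20.3, 22.3, 29.1 and 24.8 CPM with A485 (1 µM at 2 h and 6 h, then 100 nM at 2 h and 6 h). In the same order it was at 24.7, 20.9, 21.3 and 15.7 CPM with dCBP and at 25.02, 21.2, 23.1 and 20.8 CPM with IHK-44. All 12 values were below the lowest control, while the JQAD libraries, at 31.1 to 39.2 CPM, overlapped the controls. BTG1 fell with dCBP by 0.83 log2 units (SE 0.14, edgeR adjusted p 0.00199) and with IHK-44 by 0.70 (SE 0.14, adjusted p 0.00519). The change with A485 was -0.55 (SE 0.14), with an adjusted p of 0.0814 in edgeR and 0.0169 in DESeq2.

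BTG3 and TOB1 belong to the same protein family and did not pass the test with any compound. BTG3, at chromosome 21:17593653-17612901, ranged from 20.0 to 24.1 CPM in the controls and from 18.9 to 31.4 CPM over all treated libraries. Its fitted change was 0.05 ± 0.14 with A485, 0.17 ± 0.14 with dCBP, 0.14 ± 0.14 with IHK-44 and -0.05 ± 0.14 with JQAD (log2, SE). The sign for BTG3 depends on the scale, since the median ratio with dCBP was 0.33 in CPM and -0.11 in TPM, and that with IHK-44 was 0.29 and -0.18. BTG3 overlaps CXADR and BTG3-AS1, and its estimated counts were not whole numbers in any of the 20 libraries, so its reads were shared out with other transcripts. TOB1 is described with the times of treatment below.

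PLK2 had the largest differences from DMSO of the 9 with dCBP and IHK-44. PLK2 is a polo-like kinase with a role in centriole duplication, and lies at chromosome 5:58453982-58460086. It was at 70.3 and 77.4 CPM in DMSO and at 65.6 and 81.8 CPM in NT. With 1 µM A485 it was at 10.2 and 17.7 CPM, but with 100 nM at 44.01 and 54.3 CPM. The 1 µM libraries thus lay far below the controls, and the 100 nM libraries lay below them as well, at 62.6% and 70.2% of DMSO.
With dCBP, PLK2 was at 11.8 CPM at 2 h and 6.49 CPM at 6 h with 1 µM, and at 12.8 and 6.37 CPM with 100 nM. With IHK-44 it was at 8.76 and 8.0 CPM with 1 µM and at 9.29 and 12.3 CPM with 100 nM. These 8 libraries were all below the 6 h library of 1 µM A485, whatever the dose. The 2 h library of 1 µM A485, at 10.2 CPM, was itself below both dCBP libraries at 2 h and below 100 nM IHK-44 at 6 h. With JQAD, PLK2 was at 71.5 to 76.6 CPM, inside the range of the controls. The lowest ratio, that of 100 nM dCBP at 6 h, was 12.1-fold below DMSO (95% interval 9.79 to 15.2, counting error only). The fitted log2 change of PLK2 was -1.28 ± 0.43 (SE) with A485, -3.08 ± 0.45 with dCBP, -3.06 ± 0.44 with IHK-44 and 0.00 ± 0.44 with JQAD.

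PLK3, a stress-responsive relative of PLK2 at chromosome 1:44800377-44805990, did not pass the test against DMSO with any compound. PLK3 was low, at 6.56 to 11.8 CPM in the controls and 6.07 to 11.7 CPM in the treated libraries, with 102 to 178 counts per library. Its fitted log2 change was -0.42 ± 0.20 with A485, -0.06 ± 0.21 with dCBP and -0.49 ± 0.21 with IHK-44 (SE). The adjusted p for PLK3 with IHK-44 was 0.0971, and 0.0434 without DMSO at 2 h, so 1 control library decides that call.

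**Figure D2:**
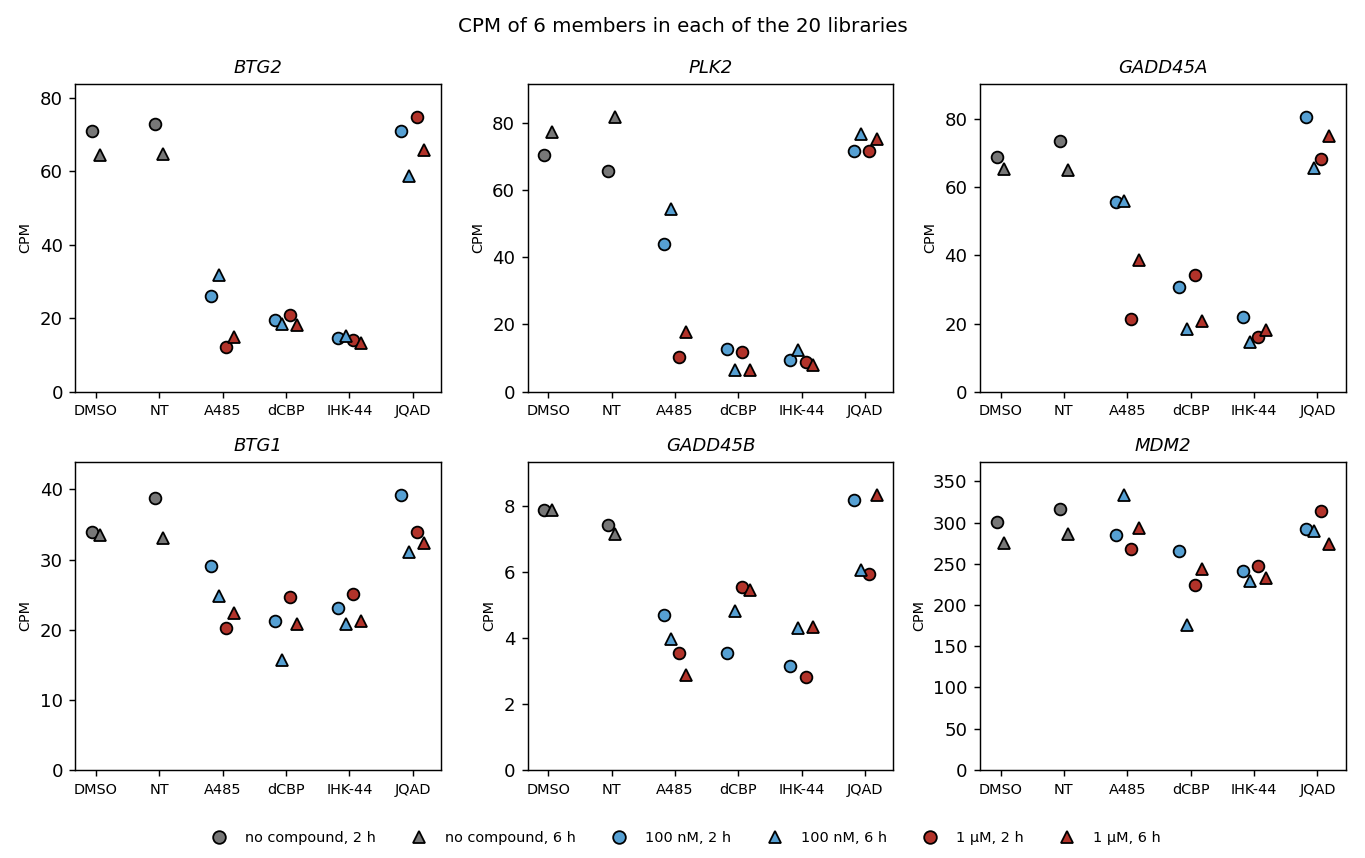
CPM (vertical axis, from 0) of BTG2, PLK2, GADD45A, BTG1, GADD45B and MDM2 in each library, by group (horizontal axis), with colour for the dose and shape for the time; each point is 1 library. For BTG2, PLK2 and GADD45A the 1 µM and 100 nM points stand apart with A485 and lie close together with dCBP and IHK-44.

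GADD45A, a p53 target that binds PCNA and CDK1, lies at chromosome 1:67685201-67688334. It was at 68.8 and 65.4 CPM in DMSO and at 73.7 and 65.1 CPM in NT. With A485 it was at 21.3 and 38.5 CPM with 1 µM and at 55.7 and 56.1 CPM with 100 nM. All 4 were below the controls, those of 100 nM at 80.8% and 85.7% of DMSO.
With dCBP, GADD45A was at 34.3 and 20.7 CPM with 1 µM and at 30.9 and 18.3 CPM with 100 nM. With IHK-44 it was at 15.97, 18.04, 21.9 and 14.6 CPM, and with JQAD at 65.7 to 80.7 CPM. GADD45A fell by 1.49 log2 units with dCBP (SE 0.29, edgeR adjusted p 0.00433) and fell by 2.05 with IHK-44 (SE 0.29, adjusted p 0.000595). The change with A485 was -0.70 (SE 0.29), with an adjusted p of 0.215.

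GADD45B, its paralogue and a target of NF-κB and TGF-β signalling, lies at chromosome 19:2476127-2478257 and was expressed at a lower level. GADD45B was at 7.86 and 7.87 CPM in DMSO and 7.43 and 7.14 CPM in NT, or 111 to 131 counts per library. It was at 2.86 to 4.68 CPM with A485, 3.53 to 5.54 CPM with dCBP and 2.82 to 4.33 CPM with IHK-44, all below the controls, and at 5.93 to 8.33 CPM with JQAD. GADD45B fell with A485 by 1.13 log2 units (SE 0.22, edgeR adjusted p 0.0477), with dCBP by 0.81 (SE 0.22, adjusted p 0.0184) and with IHK-44 by 1.22 (SE 0.22, adjusted p 0.00274). The A485 call is at the edge of the threshold: it was lost in 16 of 20 fits that each left out 1 library and, at 0.0513, with library size as the only scaling.

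MDM2, at chromosome 12:68808172-68850686, was the most counted of the 9. It was at 300.2 and 276 CPM in DMSO and 317 and 286 CPM in NT. It was at 224, 243, 265 and 176 CPM with dCBP and at 248, 233, 242 and 229 CPM with IHK-44, all below the controls. With A485 it was at 268, 293, 285 and 333 CPM, and with JQAD at 274 to 314 CPM, overlapping them. MDM2 fell with dCBP by 0.45 log2 units (SE 0.12, edgeR adjusted p 0.0171) and with IHK-44 by 0.39 (SE 0.12, adjusted p 0.038). The changes are small, and the IHK-44 call was lost with library size alone (adjusted p 0.0886), with limma (0.0874) and in 5 of 20 fits without 1 library. Without DMSO at 2 h the adjusted p was 0.0762 with dCBP and 0.127 with IHK-44. MDM2 overlaps the gene CPM (a carboxypeptidase, not the unit), and whether strand was used in counting is not given in the sources used here.

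**Figure D3:**
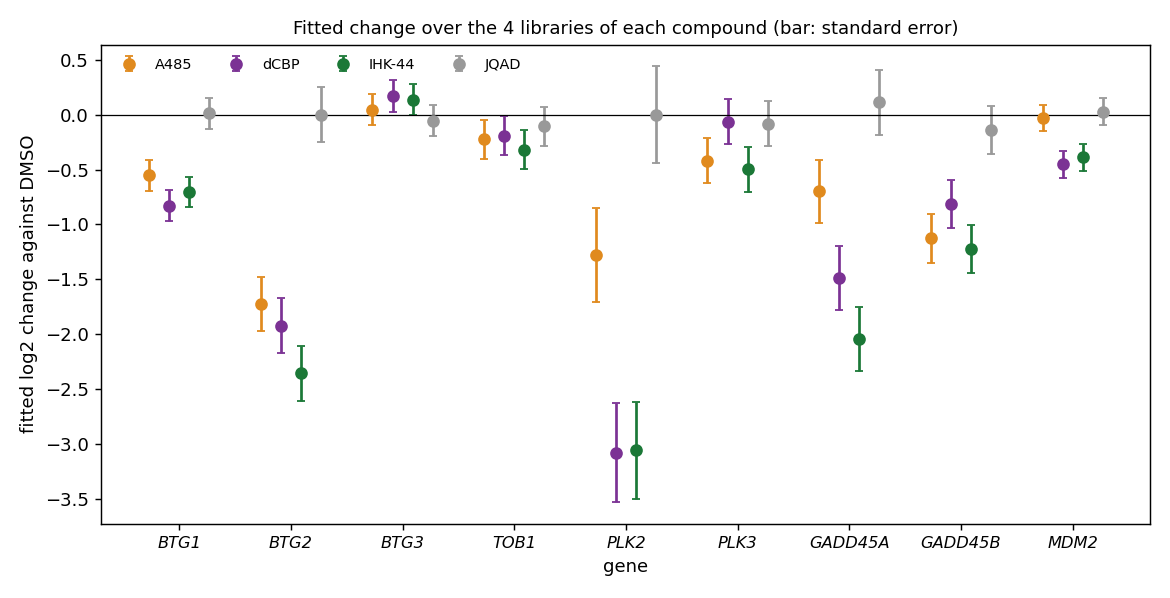
Fitted log2 change against DMSO (vertical axis) of the 9 genes (horizontal axis) for each compound, with the standard error as the bar; each value rests on 4 treated and 2 DMSO libraries in the edgeR fit. PLK2 and BTG2 reach -3.08 and -2.36, and the JQAD values lie between -0.14 and 0.11.

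The compounds were then compared with each other over 6 pairs, each with the same doses and times, in contrasts that subtract no control library. The control libraries still entered the filter, the scaling, the time term and the spread of that fit. The fit had no dose term and did not match libraries by dose, so dose differences went into the spread. dCBP against JQAD called 6 of 9 lower (16.4% of all genes were called lower), and IHK-44 against JQAD called 6 of 9 lower (16.1% of all genes). They were BTG1, BTG2, PLK2, GADD45A, GADD45B and MDM2 in either pair, or 4 of 7 in each without BTG2 and PLK2. Leaving out any 1 of the 20 libraries gave 6 for the first pair and 6 to 7 for the second. With dCBP, MDM2 was 0.48 log2 units below JQAD (95% interval of the difference -0.69 to -0.27, adjusted p 0.0029 over all genes and 0.000979 over the 6 pairs). With IHK-44, GADD45B was 1.08 below JQAD (interval -1.48 to -0.69, adjusted p 0.000915 over all genes).

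A485 against JQAD called 3 of 9 lower (BTG1, BTG2 and GADD45B), beside 1.7% of all genes, and 2 of 7 without BTG2 and PLK2. BTG1 was 0.57 log2 units lower with A485 than with JQAD (interval -0.81 to -0.32, adjusted p 0.0179). A485 stood above dCBP in 1 of 9, PLK2, beside 0.249% of all genes called higher. It stood above IHK-44 in 2 of 9, PLK2 and GADD45A, beside 0.377% of all genes. Without BTG2 and PLK2 the counts were 0 of 7 against dCBP by edgeR (2 by DESeq2, 3 at an unadjusted p under 0.05) and 1 of 7 against IHK-44. PLK2 was chosen for a dose effect that involves A485, so its share of these counts is a description. PLK2 was higher with A485 by 1.80 log2 units against dCBP (interval 0.95 to 2.64) and by 1.78 against IHK-44 (interval 0.95 to 2.61). These contrasts average both doses and times. At 1 µM, PLK2 with A485 was at 10.2 CPM at 2 h and 17.7 CPM at 6 h. At that dose it was at 11.8 and 6.49 CPM with dCBP and at 8.76 and 8.0 CPM with IHK-44. At 1 µM and 2 h PLK2 was thus not higher with A485 than with dCBP. GADD45A was 1.35 higher with A485 than with IHK-44 (interval 0.81 to 1.88, adjusted p 0.0213), a call that was lost in 5 of 20 fits without 1 library. MDM2 was 0.42 higher with A485 than with dCBP (interval 0.21 to 0.64), with an adjusted p of 0.0561 over all genes and 0.00129 over the 6 pairs. Leaving out 1 library moved the count to between 1 and 5 against JQAD, 0 and 3 against dCBP and 0 and 4 against IHK-44.

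dCBP and IHK-44 differed in 0 of 9 genes by edgeR and in 0 by DESeq2, and 0.0% of all genes were called (883 had an unadjusted p under 0.05). That does not show that they act alike. The interval of their difference was -0.89 to 0.85 log2 units for PLK2 and -0.04 to 0.90 for BTG2. PLK3, GADD45A and GADD45B were 0.43, 0.56 and 0.41 higher with dCBP, each with an unadjusted p under 0.05 and adjusted p-values of 0.696, 0.734 and 0.742.

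Dose was compared within each compound, 1 µM minus 100 nM at the same time, in a fit of the 16 treated libraries. With A485, 3 of 9 were called lower at 1 µM (BTG2, PLK2 and GADD45A), beside 0.853% of all genes. The choice of PLK2 used this contrast and that of BTG2 used A485, so nothing is read from that count, and without them it was 1 of 7. PLK2 was 1.92 log2 units lower at 1 µM (SE 0.16) and BTG2 1.17 lower (SE 0.13), given as a description. GADD45A fell by 1.02 (SE 0.21, edgeR adjusted p 0.0485), a value at the threshold. BTG1 was 0.40 lower (SE 0.14, adjusted p 0.298).
For the other compounds 0 of 9 were called by edgeR and 0 by DESeq2, beside 0.0% of all genes (dCBP), 0.107% (IHK-44) and 0.0% (JQAD). The count at an unadjusted p under 0.05 was 0 of 9 with dCBP, 1 of 9 with IHK-44 and 0 of 9 with JQAD. The interval of the dose difference for PLK2 was -0.48 to 0.32 with dCBP and -0.78 to -0.00228 with IHK-44. For BTG2 it was -0.27 to 0.31 with dCBP and -0.46 to 0.14 with IHK-44. Whether the dose effect itself differed between compounds was not tested.

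TOB1 is another adaptor of the deadenylase, at chromosome 17:50862223-50867978. In CPM, TOB1 was below the controls at 2 h and above them at 6 h with dCBP and IHK-44. It was steady in the controls, at 39.2 and 39.2 CPM in DMSO and 39.4 and 37.2 CPM in NT. With dCBP it was at 26.02 CPM (1 µM) and 31.5 CPM (100 nM) at 2 h, and at 48.1 and 47.3 CPM at 6 h. With IHK-44 it was at 24.8 and 25.8 CPM at 2 h and at 48.7 and 42.0 CPM at 6 h. In CPM the 2 h libraries were all below the controls and the 6 h libraries all above them. In TPM, TOB1 at 6 h was 18.79 and 14.02 with dCBP and 16.6 and 14.35 with IHK-44 (1 µM, then 100 nM). The 6 h controls were at 18.45 TPM in DMSO and 17.5 TPM in NT, so its place at 6 h depends on the scale.
With A485, TOB1 was at 27.4 and 34.0 CPM at 2 h and at 42.9 and 38.9 CPM at 6 h. With JQAD it was at 35.2 to 36.9 CPM, a little under the controls at either time. Averaged over time, TOB1 did not pass the test against DMSO, with fitted changes of -0.23 (A485), -0.19 (dCBP), -0.32 (IHK-44) and -0.11 (JQAD), each ± 0.18 (SE).

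The dependence on time was tested as the interaction of time with treatment, with DMSO and NT together as the control. The TOB1 effect was 0.66 log2 units higher at 6 h than at 2 h with dCBP (SE 0.17, edgeR adjusted p 0.023) and 0.76 higher with IHK-44 (SE 0.17, adjusted p 0.00954). TOB1 was the 1 gene of the 9 called with each, where 2.66% of all genes were called higher with dCBP and 2.13% with IHK-44. Leaving out any of the 4 control libraries gave an adjusted p of 0.0598 to 0.0936 for dCBP, which ends that call, and 0.0291 to 0.0484 for IHK-44. With A485 the TOB1 value was 0.41 (SE 0.17, adjusted p 0.483). With A485 0 of 9 were called by edgeR and 0 by DESeq2 (1 at an unadjusted p under 0.05), beside 0.00754% of all genes, and with JQAD 0 of 9 by either tool (0 at an unadjusted p under 0.05), beside 0.0%. TOB1 overlaps the antisense gene TOB1-AS1, whose reads cannot be told apart without strand.

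PLK3 had log2 ratios of -0.01 to 0.49 at 2 h and -0.85 to -0.01 at 6 h with these 2 compounds, with interactions of -0.64 ± 0.30 (dCBP) and -0.89 ± 0.30 (IHK-44), but adjusted p-values of 0.199 and 0.075. The DMSO library at 6 h held the highest PLK3 value of the 20, at 11.8 CPM, and NT at 6 h was at 8.17 CPM. PLK2 with dCBP was lower at 6 h (6.49 and 6.37 CPM) than at 2 h (11.8 and 12.8 CPM), with an interaction of -1.27 ± 0.74 (SE), given as a description. BTG2 was already 1.77 log2 units below DMSO at 2 h with dCBP and 2.23 below with IHK-44, as the mean of both doses, and at 6 h the means were -1.76 and -2.11.

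**Figure D4:**
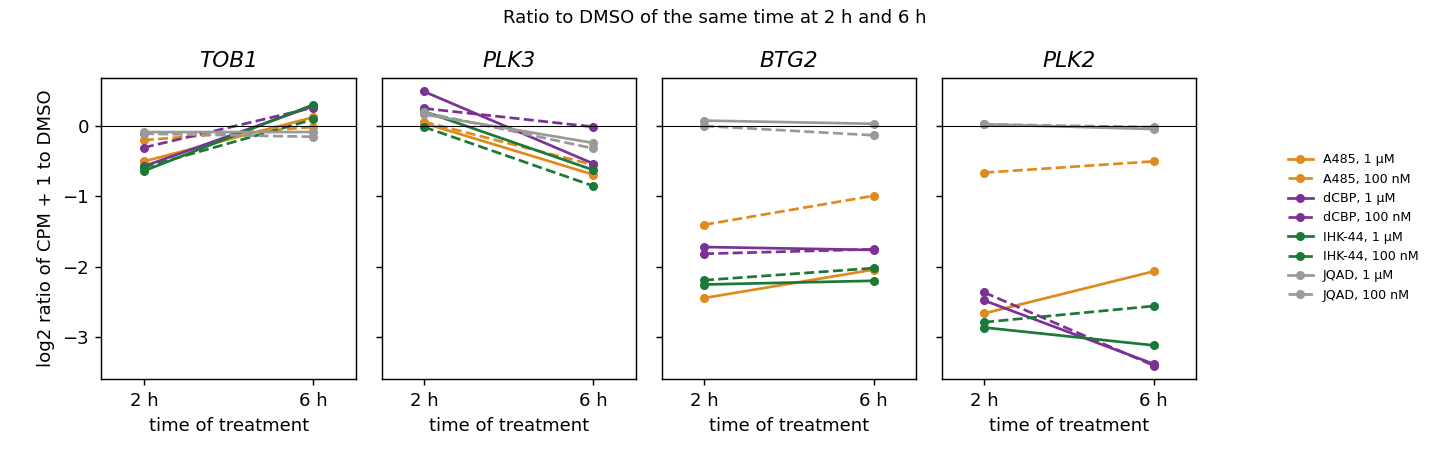
log2 ratio of CPM + 1 to DMSO of the same time (vertical axis) at 2 h and 6 h for TOB1, PLK3, BTG2 and PLK2, with a line for each compound and dose joining 2 libraries. TOB1 goes from -0.44 to 0.27 with dCBP and from -0.61 to 0.20 with IHK-44 (means of 2 doses), while BTG2 stays between -1.72 and -2.26 with either.

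The other genes of the same pathways are given by list, against DMSO, beside the same shares over all genes as above (11.8% lower and 11.8% higher with dCBP, 9.21% and 7.74% with IHK-44). Among 30 known p53 target genes, 27 were tested, and with dCBP 3 fell and 5 rose, with a median log2 change of 0.07 beside 0.05 over all genes. With IHK-44, 5 fell and 5 rose, and the median was -0.02 beside 0.04. With A485 1 fell (CDKN1A), and with JQAD 0 were called by edgeR. These calls rest on the same 2 DMSO libraries: without DMSO at 6 h, 0 of 28 tested were called with dCBP and 2 with IHK-44 (CDKN1A and GDF15, both lower), and without DMSO at 2 h, 1 fell and 4 rose with dCBP and 3 fell and 1 rose with IHK-44. CDKN1A, the p21 inhibitor of cyclin-dependent kinases, was at 46.0 to 81.7 CPM in the controls, at 16.6 to 45.6 CPM with A485, at 24.6 to 46.5 CPM with dCBP and at 14.6 to 39.1 CPM with IHK-44. CDKN1A fell by 1.13 log2 units with A485 (edgeR adjusted p 0.0477), by 0.93 with dCBP (0.0104) and by 1.35 with IHK-44 (0.00147). The A485 call of CDKN1A was lost without either DMSO library, with an adjusted p of 0.249 without that of 2 h and 0.519 without that of 6 h.
GDF15, a secreted stress cytokine, fell by 1.76 with IHK-44 (adjusted p 0.0014) and was at -0.78 with dCBP (0.0501). PHLDA3, an inhibitor of AKT, fell by 0.71 with dCBP (0.0125) and by 0.84 with IHK-44 (0.00691). TNFRSF10B, a death receptor, fell with either compound, and PMAIP1, the BH3-only protein NOXA, with IHK-44.

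Other p53 targets went the opposite way. SESN2, a stress-induced restraint on mTORC1, went from 19.1 to 21.3 CPM in the controls to 43.2 to 72.9 CPM with dCBP and 38.9 to 57.8 CPM with IHK-44. SESN2 rose by 1.35 (adjusted p 0.0019) and 1.08 log2 units (0.00638). SERTAD1, a cofactor of E2F and CDK4, rose by 1.01 (0.0111) and 0.74 (0.044), and FDXR, a mitochondrial reductase, by 0.90 (0.0115) and 0.66 (0.0461). POLH, a DNA polymerase that bypasses lesions, rose with either compound, as did XPC, a DNA damage sensor, with dCBP and TRIAP1 with IHK-44. The comparisons of dCBP and of IHK-44 with DMSO share their control libraries.

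**Figure D5:**
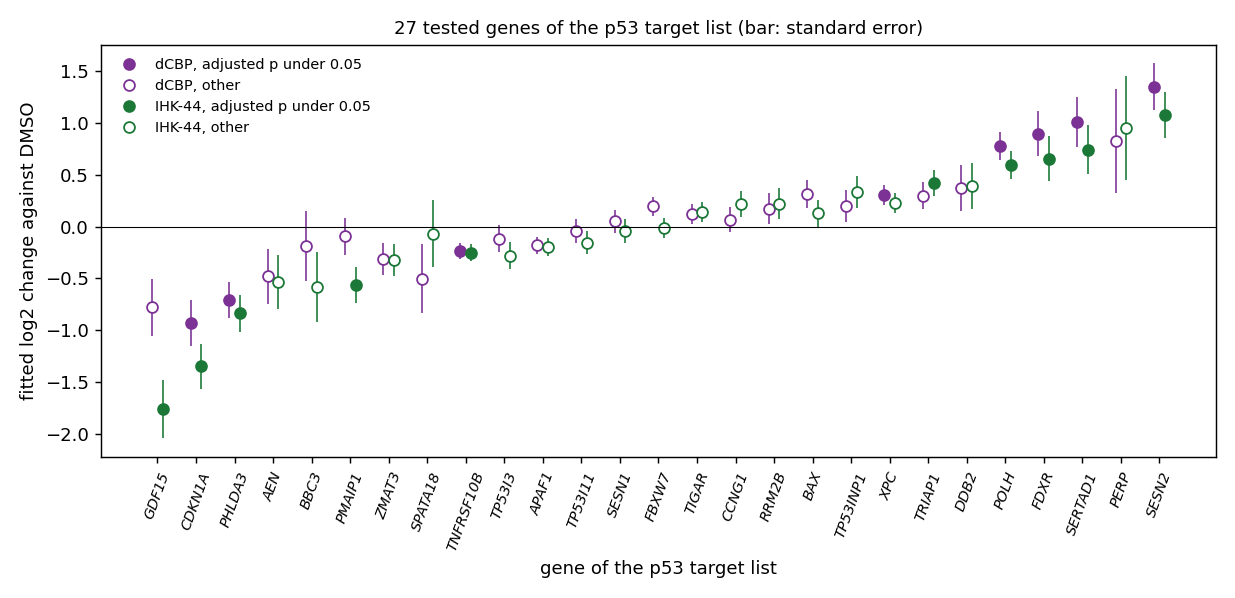
Fitted log2 change against DMSO (vertical axis) of the 27 tested p53 target genes (horizontal axis, in order of the mean of both compounds) with dCBP and IHK-44, with the standard error as the bar and filled points for an adjusted p under 0.05. The values run from -1.76 for GDF15 with IHK-44 to 1.35 for SESN2 with dCBP.

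Of 7 paralogues outside the 9, 5 were tested. GADD45G, the third GADD45 gene, was at 9.33 to 14.1 CPM in the controls, 0.959 to 3.84 CPM with dCBP and 0.842 to 2.04 CPM with IHK-44. GADD45G fell by 2.34 log2 units with dCBP (SE 0.42, edgeR adjusted p 0.00274) and fell by 2.89 with IHK-44 (SE 0.43, adjusted p 0.000742). TOB2, the relative of TOB1, rose by 0.46 with dCBP (SE 0.12, adjusted p 0.0173). The mitotic PLK1 and PLK4 and the MDM2 relative MDM4 did not pass the test.

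Of 11 subunits of the CCR4-NOT complex, 3 fell with dCBP and 1 with IHK-44, and none rose. CNOT6L, a catalytic subunit, fell by 0.65 with dCBP (SE 0.15, edgeR adjusted p 0.0105) and by 0.51 with IHK-44 (0.0346). CNOT2 fell by 0.60 (0.00959) and CNOT9 by 0.23 (0.0394) with dCBP. Of 10 members and regulators of the p53 family, 1 rose with either compound: HEXIM1, an inhibitor of the elongation kinase P-TEFb, by 1.71 with dCBP (SE 0.25, adjusted p 0.0011) and by 1.37 with IHK-44 (SE 0.25, adjusted p 0.00271). Of 7 partners of GADD45 proteins, MAPK14 (the p38 kinase) rose by 0.37 with dCBP (0.0137) and 0.33 with IHK-44 (0.0269), and PCNA by 0.31 with IHK-44 (0.0321). Most of these counts are small, and nothing is read from their shares beside those of all genes. In these 4 lists edgeR called 0 genes under A485 and 0 under JQAD. Without DMSO at 6 h, the calls left in them were HEXIM1 with dCBP and GADD45G with IHK-44. Without DMSO at 2 h, they were GADD45G, TOB2, CNOT2, CNOT6L, HEXIM1 and MAPK14 with dCBP and GADD45G and HEXIM1 with IHK-44.

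The genes most like BTG2 and PLK2 were found by Pearson's r of the log2 ratio to DMSO over the 16 treated libraries, among 12173 other genes. The libraries share the same 2 DMSO libraries and their compounds, so the values describe the profile only. For BTG2 the highest were BMP4 (r 0.973), a growth factor, then BAMBI (0.970), PRAG1 (0.965) and CSRNP2 (0.959). For PLK2 the 5 highest were STX11 (0.987), RGMB (0.985), CITED2 (0.980), FLRT3 (0.977) and LRIG3 (0.976). CITED2 encodes a protein that binds CBP and p300, and had a median of 69.8 CPM in the controls, 27.8 with A485, 12.4 with dCBP, 10.4 with IHK-44 and 67.4 with JQAD.
BTG2 and PLK2 had an r of 0.899 with each other. GADD45A had an r of 0.945 with PLK2 and 0.886 with BTG2, and BTG1 0.884 and 0.827. GADD45B had an r of 0.593 with PLK2 and 0.815 with BTG2, and MDM2 0.747 and 0.542. PLK3 and TOB1 were apart from them, with r between -0.02 and 0.15. BTG3 had an r of -0.58 with BTG2 (rank 9379 of 12173 from the highest) and -0.57 with PLK2 (rank 8152). Many other genes had a lower r, and the sign of the BTG3 ratio depends on the scale, as given above.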

How the data were processed

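Total RNA of RH4 cells was sequenced in 20 libraries. The other samples of the series, 11 of ChIP-seq and 1 of ChRO-seq, were not analysed here. STAR 2.5.3a, RSEM 1.3.3 and the build hg38 are named in the submitters' processing notes, without role or order. The files list coding rows only, per the file headers. The expected counts deposited by the authors are estimated reads per gene and were rounded before testing (88.5% of values were whole). The deposited TPM and FPKM values were scaled over all genes the authors quantified, and coding rows held 27.9% to 53.9% of the TPM. That share was 39.3% to 44.5% in the controls and 43.0% to 53.9% with A485. It was 27.9% to 35.4% with dCBP, 31.2% to 34.6% with IHK-44 and 37.9% to 45.5% with JQAD. The share enters the TPM ratio of every gene, and its part in the BTG3 and TOB1 differences between scales was not tested. The deposited CPM values are, from the values themselves, expected counts scaled over the coding rows. Levels between genes were compared in FPKM and all else in CPM or counts.

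Ratios were log2(CPM + 1) minus DMSO of the same time, which understates the change of low genes. Expected counts were tested with edgeR 4.0.16 in R 4.3.3 (quasi-likelihood test, TMM, filterByExpr, Benjamini-Hochberg over all genes). The fit against DMSO and between compounds had a level for DMSO, NT and each compound and a time term (13 residual degrees of freedom). The dose fit had a block for each compound and time (13137 genes, 4 residual degrees of freedom). The time fit had an interaction of time with treatment (10 residual degrees of freedom). With 200 genes altered by 1 log2 unit in simulated counts, the fit recovered 93.5% for IHK-44 against DMSO (12782 genes), 95.5% for dCBP against JQAD (12811), 82% for dose with A485 (12706) and 31.5% for time with dCBP (12793). False calls were 11, 8, 12 and 5 in that order. The simulation gave every gene the same spread and no other dose, time or compound effect. Its recovery therefore cannot be carried over to genes with a larger spread, such as PLK2. DESeq2 1.42.0, limma 3.58.1, other scalings, filters, controls and leaving out libraries were the alternatives. Python 3.11.15 with scipy 1.17.1 gave exact binomial intervals, which cover counting error only.

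The 9 genes and the pathway lists were chosen with earlier results of these data known. Genes named from the lists were up to 3 with the largest fall and 3 with the largest rise among those called with dCBP or IHK-44, with other called genes named where a count was 5 or fewer, after their values were seen. The genes most like BTG2 and PLK2 were the 5 with the highest r for each, of which 1 is not reported here.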

Additional observations from a re-analysis of the deposited data

Results flagged for a closer look

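The effect on TOB1 differed between the times of treatment. The test of the difference itself, the interaction of time with treatment in edgeR, gave 0.66 log2 units (6 h minus 2 h) with dCBP and 0.76 with IHK-44. The adjusted p of the interaction was 0.023 and 0.00954. The dCBP call was lost in 4 of 4 fits that each left out 1 control library, and the IHK-44 call in 0 of 4. In CPM, TOB1 was below the controls in the 4 libraries at 2 h and above them in the 4 at 6 h. In TPM the 6 h libraries were not all above the 6 h controls.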

How the results depend on the processing

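The 104 values tallied were the BTG2 and PLK2 ratios and the numbers of the 9 genes called, under the alternatives. Fits that left out a library were not among them and are given below. Of the 104, 93 stayed within the spread or within 1.5 times the count. Counts that were 0 and stayed at 0, as for JQAD against DMSO, are among the 93. A ratio smaller than its own spread could change sign and still be counted among these. The median log2 ratio of BTG2 with dCBP, -1.76 as reported, was -1.81 with a pseudocount of 0.1 CPM, -2.12 in TPM and -1.89 with each library rescaled to a median of 0. In TPM the BTG2 ratio was -2.50 with IHK-44 and 0.11 with JQAD, and the PLK2 ratio 0.0492 with JQAD. The number of the 9 genes called with A485 against DMSO was 1 with library size alone and 4 with DMSO and NT pooled. Between A485 and dCBP it was 3 with DESeq2 and 2 with no filter, and between A485 and JQAD it was 5 with DESeq2. Over all 9 genes, among ratios larger than their spread, the 2 that changed sign were the BTG3 ratios in TPM, -0.115 with dCBP and -0.184 with IHK-44. The cause was not tested in any of these.

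Leaving out 1 library at a time, the number called against DMSO ranged from 0 to 4 for A485, 2 to 6 for dCBP and 3 to 6 for IHK-44. It ranged from 0 to 3 for A485 against dCBP, 0 to 4 for A485 against IHK-44, 1 to 5 for A485 against JQAD, and was 0 for the time dependence with dCBP. Library size alone moved the median change of all genes from 0.05 to 0.16 with dCBP and from 0.04 to 0.16 with IHK-44. For A485 the calls over all genes were 36 in edgeR and 385 in DESeq2. The labels give no replicate numbers by which to pair libraries. The dose fit matches libraries by compound and time. A block of dose and time across compounds was possible, since each compound had the same doses and times, but was not run. With 1 library per condition, GADD45B and PLK3, the least counted of the 9, carry the largest counting error.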
